A study of Homo sapiens with 4 samples.

Results

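RAB GTPases are small GTP-binding proteins that mark the membranes of the secretory and endocytic pathways. Each cycles between an inactive form bound to GDP and an active form bound to GTP, sits on its membrane through a lipid anchor, and recruits the motors, tethers and other effectors that move, dock and fuse vesicles. Most of their genes begin in CpG islands, stretches of CpG-rich DNA that are usually unmethylated in somatic cells, and DNA methylation of such an island goes with a silent promoter. The members described here were the protein-coding genes of GENCODE release 44, lifted to hg19, whose symbol is RAB with a number and at most 1 letter. There were 62 such genes among 20163 protein-coding genes on chromosomes 1 to 22, X and Y. A promoter was taken to reach 1000 bp upstream and 1000 bp downstream from where the canonical transcript begins, and a promoter had a new peak when a row of the peak list overlapped it by at least 1 bp.

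The study used HEK293, a human embryonic kidney cell line. It aimed at editors that methylate a chosen gene strongly and the rest of the genome less. The cells with the wild type construct, written Ab-3A3L (WT), were transiently transfected with dCas9-SunTag (dCS), with an antibody fragment fused to the DNMT3A catalytic domain and DNMT3L, and with an sgRNA to the CpG island of ISG15, and were sorted after 3 days for cells that carried every plasmid. DNMT3A adds methyl groups to CpGs that were unmethylated before, and DNMT3L stimulates it. The other 3 libraries came from untreated cells and from cells with the Ab-3A3L (K844E) and Ab-3A3L (R887E) mutants. These mutants were designed to bind DNA more weakly. The 3 libraries were not analysed here. Methylated fragments were pulled down with GST-MBD2 and sequenced, with 1 library per condition, so that the error between replicates is unknown for every value given here. The authors called 12864 new peaks in the wild type cells against untreated cells. The fold of a peak is the number of fragments at its summit over the local background, as the peak caller gave it. Both numbers were worked back from the listed fold and its p-value. The intervals of the folds are exact Poisson 95% intervals of the fragments at the recovered background rate and cover the counting error of the wild type library only.

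A promoter with many CpGs can bind more MBD2 when it becomes methylated, and the stretches that follow show the range of sequence among the RAB genes. They were read from hg19 on the strand of the gene, with each CpG in capitals, and were placed outside annotated untranslated regions, as close to the summit or, without a peak, to the start site as that allowed. The first 3 belong to the promoters with the highest folds for which such a stretch is shown.

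RAB6A, coding exon 1 and the start of intron 1, chr11:73471481-73471680, minus strand, 22 CpGs: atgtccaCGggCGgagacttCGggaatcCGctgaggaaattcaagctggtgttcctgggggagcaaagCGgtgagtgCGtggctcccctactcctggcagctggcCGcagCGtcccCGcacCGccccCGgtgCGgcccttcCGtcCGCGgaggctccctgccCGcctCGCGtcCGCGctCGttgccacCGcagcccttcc

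RAB18, 155 to 314 bp downstream of the start site, chr10:27793388-27793547, plus strand, 18 CpGs: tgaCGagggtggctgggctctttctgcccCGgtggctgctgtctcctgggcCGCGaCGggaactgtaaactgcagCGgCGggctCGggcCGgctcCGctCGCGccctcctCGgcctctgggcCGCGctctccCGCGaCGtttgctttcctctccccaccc

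RAB34, 656 to 815 bp downstream of the start site, chr17:27044071-27044230, minus strand, 9 CpGs: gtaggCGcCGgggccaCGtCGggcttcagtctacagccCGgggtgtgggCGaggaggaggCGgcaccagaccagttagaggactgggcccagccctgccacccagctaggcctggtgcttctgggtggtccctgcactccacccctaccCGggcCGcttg

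The next 2 come from the promoters of RAB8A and RAB1B, which had the most CpGs of all members without a peak, and the last from RAB40A, which had the fewest CpGs of all members.

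RAB8A, the 200 bp upstream of the start site, chr19:16222499-16222698, plus strand, 26 CpGs: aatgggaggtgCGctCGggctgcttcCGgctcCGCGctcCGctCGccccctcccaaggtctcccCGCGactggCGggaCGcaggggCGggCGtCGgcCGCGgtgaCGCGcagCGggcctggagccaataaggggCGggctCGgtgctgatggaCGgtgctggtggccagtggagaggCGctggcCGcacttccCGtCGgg

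RAB1B, 41 to 240 bp downstream of the start site, chr11:66036151-66036350, plus strand, 17 CpGs: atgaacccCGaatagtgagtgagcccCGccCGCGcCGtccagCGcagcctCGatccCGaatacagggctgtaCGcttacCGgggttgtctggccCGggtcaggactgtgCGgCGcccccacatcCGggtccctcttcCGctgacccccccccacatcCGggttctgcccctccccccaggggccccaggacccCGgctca

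RAB40A, the 200 bp upstream of the start site, chrX:102774418-102774617, minus strand, 2 CpGs: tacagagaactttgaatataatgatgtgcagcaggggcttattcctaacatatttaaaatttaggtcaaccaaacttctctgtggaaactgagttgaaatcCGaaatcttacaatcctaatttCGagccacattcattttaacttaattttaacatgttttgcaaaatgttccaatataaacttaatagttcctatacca

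The RAB8A stretch, placed at the start site, holds more CpGs than that of RAB6A, placed at the summit, although no peak was listed at RAB8A. Over the whole promoters the order was the reverse, with 143 CpGs at RAB6A and 137 at RAB8A. RAB8A directs exocytic vesicles and is needed for the primary cilium, and RAB1B acts in transport from the ER to the Golgi.

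New peaks were listed at 35 of the 62 RAB promoters, or 56.5%. Among all protein-coding promoters 41.6% had one, and among those with a CpG island 57.5%. The RAB promoters were richer in CpGs than the whole set, with a median of 113.5 CpGs against 96, and 54 of them, or 87.1%, overlapped a CpG island against 71.6% of the other promoters. When each RAB promoter was given the share of its class, out of 10 classes by CpG number over the other promoters, the sum came to 31.8 promoters with a peak, where 35 were observed. With all peaks counted, the observed number was therefore close to that of promoters of a like CpG number, and nothing particular to the RAB genes was read from it. When peaks under the median fold of the list were left out, 27 RAB promoters kept one, where the same classes gave 19.8. The numbers then lay further apart, and whether by more than chance was not tested.

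The share of promoters with a peak rose with the CpG number. None of the 8 RAB promoters with under 60 CpGs had a new peak, and of the other promoters in that range 1.78% had one. Of the 16 RAB promoters with 60 to 99 CpGs, 5 had a peak, or 31.3%, against 32.3% of the others. In the range from 100 to under 150 CpGs it was 21 of 29, or 72.4%, against 65.6%. All 9 RAB promoters with at least 150 CpGs had a peak, against 78.8% of the others. The 35 promoters with a peak held a median of 135 CpGs and the 27 without one a median of 82, and the ranges of both groups overlapped between 71 and 137 CpGs. All 8 RAB promoters without a CpG island were without a peak. Nearly all of the other promoters with a peak also had an island, so this was not particular to the RAB genes. These 8 were those with under 60 CpGs, except that RAB30 stood in place of RAB27B, and do not make a separate observation.

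**Figure D1:**
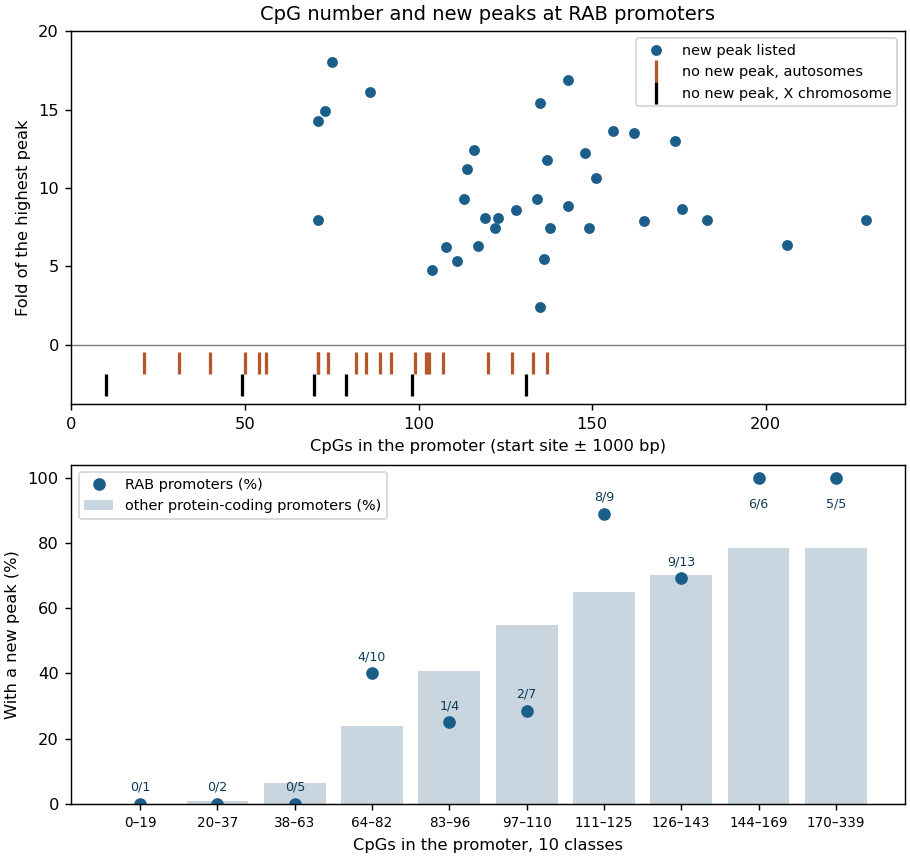
CpG number and new peaks of the RAB promoters. Top, each point is 1 RAB promoter with a peak, placed by its CpGs (x axis) and the fold of its highest peak (y axis), and the ticks under the zero line are the 27 promoters without a peak, 21 on autosomes and 6 on X. Bottom, share of promoters with a new peak in 10 classes of CpG number, with bars for the other protein-coding promoters and points with counts for the RAB promoters, which had peaks in none of the 8 promoters of the 3 lowest classes and in all 11 of the 2 highest.

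Once a promoter had a peak, its fold followed the CpG number little. Over the 35 members, which all come from 1 library, Spearman's rho between the fold of the highest peak and the CpG number was -0.066 and Pearson's r was -0.23. Over the other 8351 promoters with a peak the values were 0.049 and 0.041. The 5 RAB promoters with 60 to 99 CpGs had a median fold of 14.9, against 7.87 at the other promoters of that range. These 5 were RAB6C, RAB6D, RAB18, RAB38 and RAB36. The promoters of RAB6C and RAB6D were 95.8% identical and are not independent, so that this median rests on very few loci. The 21 with 100 to under 150 CpGs had a median of 8.07 against 8.41.

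Across the 35 promoters the fold of the highest peak ran from 2.42 to 18.0 with a median of 8.68, and at the other promoters with a peak the median was 8.26. The fold reached 10 at 14 of the 35, or 40%, and at 32.0% of the others. The interval of the fold lay above the median of the other promoters at 9 members and below it at 2, RAB3B and RAB4A. It included that median at 24, so for most members a fold above or below the usual could not be told from counting error. Intervals were not counted for the other promoters, so that it is not known whether 9 is many. The 9 include RAB6C and RAB6D, whose promoters are nearly identical. The summits held 8 to 36 fragments with a median of 18.

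**Figure D2:**
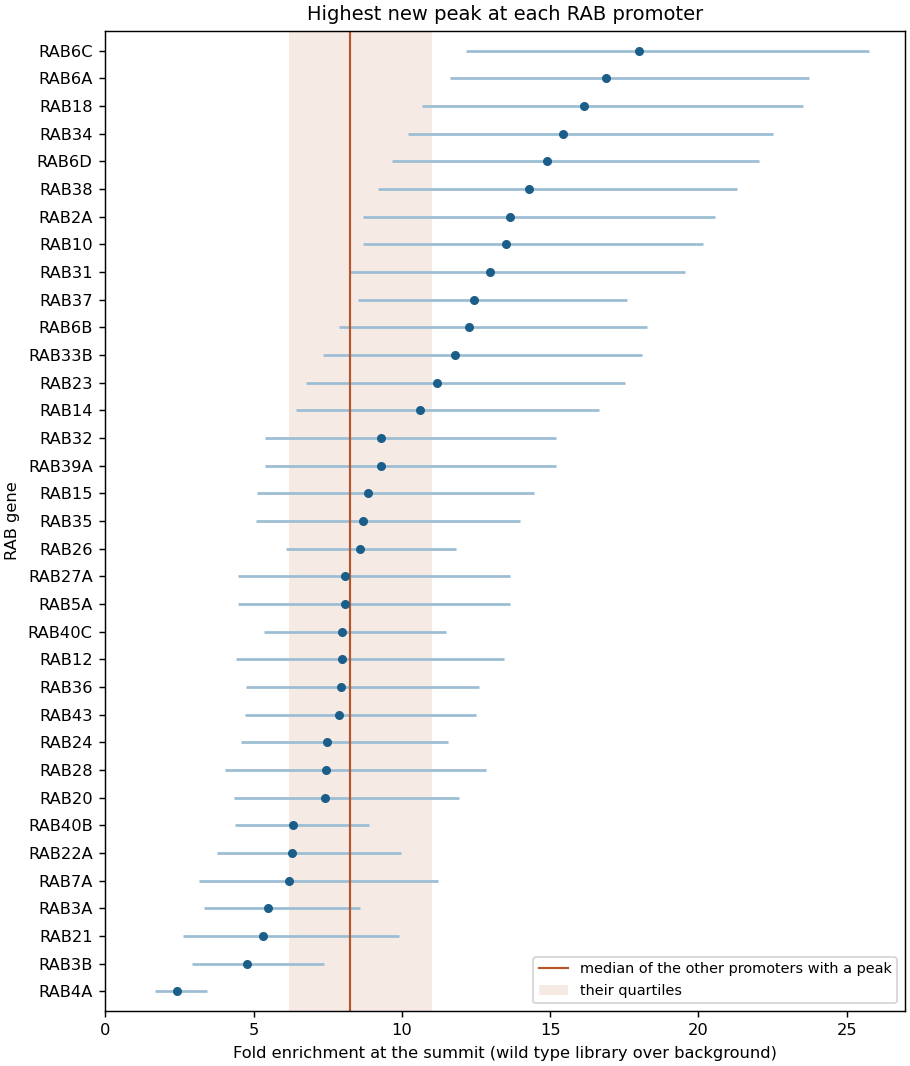
Fold of the highest new peak at each of the 35 RAB promoters that had one. Points are the listed folds and lines their 95% Poisson intervals, the vertical line is the median of the other promoters with a peak (8.26) and the band their quartiles (6.21 to 11.0). The intervals of RAB6C, RAB6A, RAB18, RAB34, RAB6D, RAB38, RAB2A, RAB10 and RAB37 lie above that median.

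The highest folds, those of RAB6C and RAB6A, belonged to the RAB6 genes. RAB6A, which acts in traffic from the Golgi back to the ER and in the exit of vesicles from the Golgi, had a fold of 16.9 (interval 11.6 to 23.7) from 31 fragments over a background rate of 0.895. Its peak, chr11:73471297-73472379, covered 73.4% of the CpGs of the promoter. RAB6B, the neuronal form, had a fold of 12.2 (interval 7.87 to 18.3) from 22 fragments. RAB6C and RAB6D are intronless copies of RAB6A on chromosome 2. The fold of RAB6C was 18.0 (interval 12.2 to 25.7) from 28 fragments at chr2:130737170-130737744, and that of RAB6D 14.9 (interval 9.67 to 22.0) from 23 fragments at chr2:132121299-132121915. All 4 genes thus had a peak, RAB6C and RAB6D with only 75 and 73 CpGs, where 23.9% of the other promoters in their class had one.

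The promoters of RAB6C and RAB6D are not independent measurements. They were identical at 95.8% of their positions, while the next most alike of the 1891 pairs of RAB promoters reached 54.9%. Of all stretches of 150 bases, the length of a read, in the promoter of RAB6C, 13.4% occurred without a difference in that of RAB6D, and reads from such stretches cannot be assigned to either gene.

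RAB18, which works at the ER and on lipid droplets, came after RAB6C and RAB6A and before RAB6D and RAB6B, with a fold of 16.1 (interval 10.7 to 23.5). Its peak held 25 fragments over the genome-wide background rate of 0.6106 and covered 86.0% of the CpGs of the promoter, the largest share of all members. RAB34, which is needed for the formation of cilia, had a fold of 15.4 (interval 10.2 to 22.5) from 25 fragments. RAB38, which directs the delivery of melanosome enzymes in pigment cells, had a fold of 14.3 (interval 9.18 to 21.3) with 71 CpGs in its promoter, as few as RAB36 and fewer than the other members with a peak. RAB2A, of the traffic between ER and Golgi, had a fold of 13.7 (interval 8.69 to 20.6), and RAB10, which brings the glucose transporter GLUT4 to the cell surface, one of 13.5 (interval 8.69 to 20.2).

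The lowest fold was that of RAB4A, a RAB of the fast recycling from early endosomes, with 2.42 (interval 1.66 to 3.42). It rested on 30 fragments, more than at most members, over a background rate of 11.8. RAB3B, a RAB of secretory vesicles, followed with 4.77 (interval 2.93 to 7.39) from 18 fragments over a rate of 2.98. RAB21, which carries integrins through endosomes, had a fold of 5.31 (interval 2.63 to 9.90), from only 8 fragments over a rate of 0.694. RAB3A, the RAB of synaptic vesicles, had 5.48 (interval 3.32 to 8.60) from 17 fragments, and RAB7A, which governs late endosomes and lysosomes, 6.21 (interval 3.18 to 11.2) from 9 fragments. Of these low folds, those of RAB4A, RAB3B and RAB3A thus stood over a high background, and those of RAB21 and RAB7A on few fragments. A background above 2 was recovered at 6 of the 35 members, and 12, or 34.3%, stood at the genome-wide rate, against 34.8% of the other promoters.

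The highest peaks at RAB promoters were 301 to 1241 bp wide, with a median of 829 bp against 592 bp at the other promoters. All peaks at a promoter together covered a median of 41.4% of its length and 61.6% of its CpGs. At the other promoters the medians were 31.6% and 54.7%. The CpGs covered ran from 18.0% at RAB12 to 86.0% at RAB18.

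The summit lay downstream of the start site at 27 of the 35 promoters, or 77.1%, and at 70.5% of the other promoters. The median position was 235 bp downstream, with quartiles of 103.5 and 396 bp, positions upstream being negative. A peak covered the start site itself at 24 members. At 8 members the peaks lay only downstream of it, among them RAB34, RAB2A and RAB12. At RAB35, of endocytic recycling and the control of actin, the only peak lay upstream, with its summit at -677 bp and a fold of 8.68. RAB26 and RAB40C had peaks on both sides with the start site between them.

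**Figure D3:**
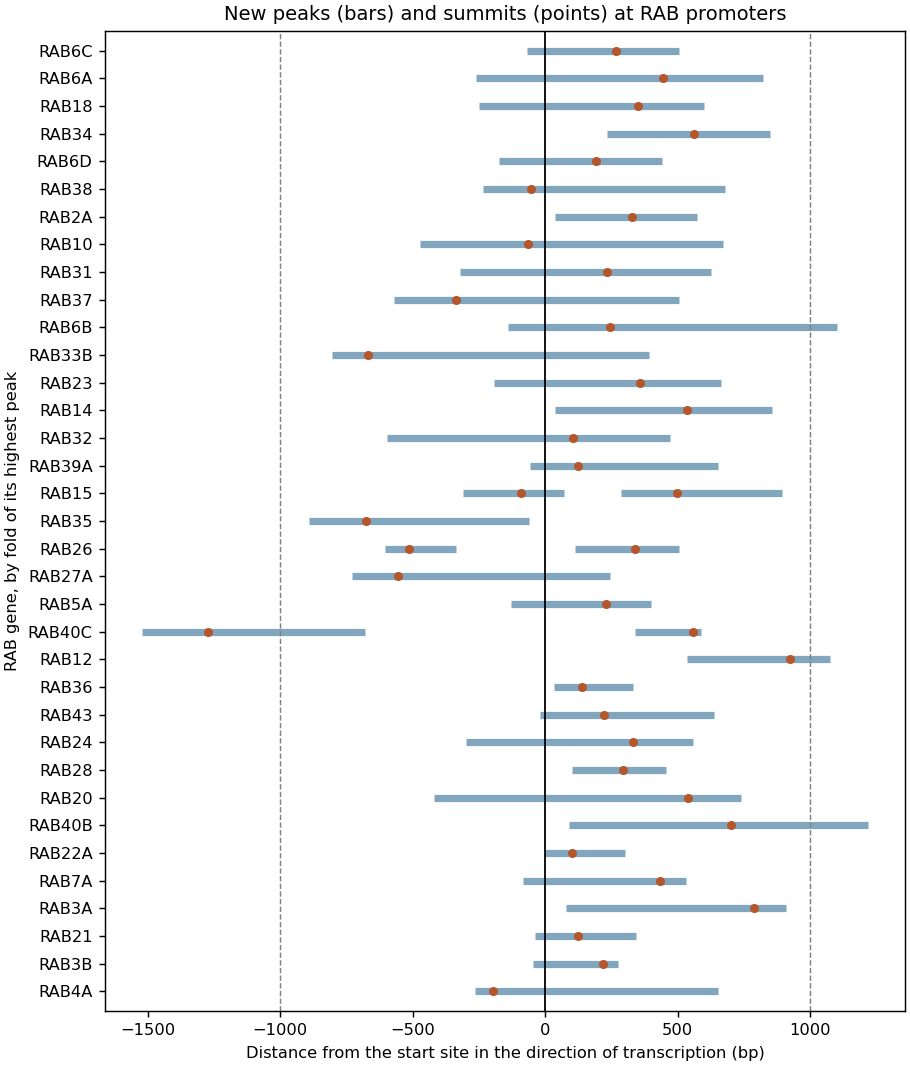
New peaks at the 35 RAB promoters, drawn by distance from the start site in the direction of transcription (x axis, bp) and ordered by fold from RAB6C at the top to RAB4A at the bottom. Bars are peaks, points are summits, the solid line is the start site and the dashed lines are the limits of the promoter. The peaks of 24 promoters cross the start site, and at 27 the summit of the highest peak lies to its right.

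More than 1 peak was listed at 3 members. RAB26, a RAB of secretory granules, had a peak with a fold of 8.60 and 36 fragments, the most of all members, with its summit 341 bp downstream, and a second with a fold of 4.73 at -515 bp. RAB15, of endosomal recycling, had 2 peaks of nearly equal fold, 8.85 and 8.22, with summits at 498 bp and -89 bp. At RAB40C, which joins a RAB fold to a SOCS box for ubiquitin ligation, the higher peak with a fold of 7.98 had its summit at -1272 bp, outside the promoter, and the second, with a fold of 3.58, lay 558 bp downstream. RAB40C had the most CpGs of all members, 229.

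The RAB proteins of the ER and the Golgi had peaks at 5 of 11 promoters, where their CpG classes gave 6.58. These were RAB2A, RAB6A, RAB6B, RAB33B and RAB43, with a median fold of 12.2. RAB33B, which binds the autophagy factor ATG16L1, had a fold of 11.8 (interval 7.34 to 18.1), and RAB43 one of 7.87. No peak was listed at RAB1A, RAB1B, RAB2B, RAB30, RAB33A or RAB41. RAB18, which also works at the ER, and the RAB6A copies RAB6C and RAB6D had peaks but were not on this list. The counts of this group and of the genes outside the groups depend on that choice.

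For exocytosis and secretory vesicles, 6 of 12 promoters had a peak, where the classes gave 6.23, and the median fold was 8.34. Beside RAB3A, RAB3B, RAB10 and RAB26 these were RAB27A, which moves melanosomes and lytic granules, with a fold of 8.07, and RAB37, found on secretory granules, with 12.4. RAB3C, RAB3D, RAB8A, RAB8B, RAB13 and RAB27B were without a peak.

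Of the RAB genes of early and recycling endosomes, 8 of 15 had a peak, where the classes gave 8.06. RAB31 was highest with 13.0 (interval 8.26 to 19.5). RAB14, which links endosomes and the Golgi, had a fold of 10.6, RAB5A, which drives the fusion of early endosomes, one of 8.07, and RAB22A one of 6.29. The others with a peak were RAB4A, RAB15, RAB21 and RAB35. RAB4B, RAB5B, RAB5C, RAB11A, RAB11B, RAB17 and RAB25 had none.

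Late endosomes, lysosomes and related organelles counted 4 of 7 promoters with a peak, where the classes gave 3.30. RAB32, a partner of RAB38 in the making of melanosomes, had a fold of 9.31 and RAB24, a RAB linked to autophagy, one of 7.47, next to RAB7A and RAB38. RAB9A, RAB9B and RAB29 had no peak. Of the SOCS box genes, RAB40B had a fold of 6.33 and RAB40C has been described, while RAB40A had no peak.

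The 14 genes outside these groups had a peak in 10 cases, where the classes gave 6.07. RAB6C, RAB6D, RAB18 and RAB34 were among them. RAB23, a restraint on Hedgehog signalling, had a fold of 11.2 (interval 6.77 to 17.5), RAB39A had 9.31, RAB12 had 7.97, RAB36, with only 71 CpGs, had 7.94, RAB28, found at the cilia of photoreceptors, had 7.45 and RAB20 had 7.41. RAB19, RAB39B, RAB42 and RAB44 were without a peak.

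Paralogues, taken as genes with the same number and another letter, made 13 sets with 32 genes. In 1 set, RAB6, every gene had a peak, in 8 sets some genes had one, and in 4 sets, RAB1, RAB8, RAB9 and RAB11, none had. In all 8 mixed sets, each gene with a peak held more CpGs than each gene without one. The difference was wide for RAB27A with 119 CpGs against 54 in RAB27B, for RAB2A with 156 against 85 in RAB2B and for RAB4A with 135 against 82 in RAB4B. It was narrow for RAB33B with 137 against 131 in RAB33A, and RAB33A lies on X. RAB5A had 123 CpGs, against 71 in RAB5B and 102 in RAB5C. RAB3A and RAB3B had 136 and 104, against 92 in RAB3C and 89 in RAB3D. RAB39A had 113 against 70 in RAB39B, and RAB40A, with 10 CpGs, stood far below RAB40B with 206. RAB39B and RAB40A lie on X like RAB33A, and in these sets CpG number and chromosome cannot be told apart.

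The members without a peak fell into 3 ranges of CpG number. The 8 with under 60 CpGs were RAB13, RAB17, RAB19, RAB25, RAB27B, RAB40A, RAB41 and RAB44. There were 11 with 60 to 99 CpGs, among them RAB9A with 98, RAB8B with 99 and RAB3C with 92. At least 100 CpGs were held by 8 members. Of these, RAB8A had 137 CpGs, RAB1B 133, RAB33A 131, RAB1A 127, RAB11B 120, RAB11A 107, RAB42 103 and RAB5C 102. RAB1, RAB8 and RAB11 act in ER export, in exocytosis and at recycling endosomes. Whether a missing peak goes with the use of a gene in these cells was not tested. In the class of RAB8A, RAB1B and RAB1A, 70.3% of the other promoters had a peak.

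No RAB promoter without a peak on an autosome had one just outside its limits. The nearest peak lay between 5437 bp (RAB19) and 611333 bp (RAB27B) from the start site, with a median of 34430 bp. For RAB1A the distance was 73136 bp and for RAB8A 34430 bp. A promoter is missing from the list when it did not pass the authors' threshold against untreated cells, and a promoter that stayed unmethylated, one methylated before and one with too few reads cannot be told apart. At the genome-wide background, 6 fragments were the smallest number listed, and at a background as high as that of RAB4A it was 28.

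None of the 6 RAB genes on the X chromosome had a new peak. These were RAB9A, RAB9B, RAB33A, RAB39B, RAB40A and RAB41, of which 4 had at least 60 CpGs. RAB9A returns mannose 6-phosphate receptors from late endosomes to the Golgi, and RAB39B is a neuronal RAB known from X-linked intellectual disability. The share over all promoters of X was 8.17%, and over the autosomes it was 43.2%. On the autosomes 35 of 56 RAB promoters had a peak, or 62.5%, where the classes of autosomal promoters gave 31.1.

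A RAB promoter held the start site of another protein-coding gene in 5 cases. RAB24 and PRELID1 start 80 bp apart, and their shared promoter had a peak with a fold of 7.47. RAB2B and TOX4 start 236 bp apart without a peak. At RAB4B, RAB5C and RAB13 the other annotated gene was a readthrough or a gene without a symbol, and there was no peak.

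The proteins that load, extract, switch and read the RABs were then counted from lists of 106 genes, of which all but 1 were found. Their promoters had a new peak in 68 cases, or 64.8%, where the CpG classes gave 61.0. GDI2, which extracts RABs bound to GDP from membranes, had a fold of 12.4 (interval 7.72 to 19.0). CHML, an escort protein for the lipid anchor, had 10.04, RABIF 9.93 and RABGGTA, a subunit of the transferase that attaches the anchor, 8.89. CHM, the other escort protein, which lies on X, and RABGGTB, the second subunit of the transferase, had no peak and only 58 and 46 CpGs.

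The exchange factors, which exchange GDP for GTP, had peaks at 23 of 32 promoters, where the classes gave 18.7. DENND4A and DENND5B led them with folds of 19.9 (interval 13.7 to 27.9) and 19.2 (interval 13.2 to 27.2). The GTPase-activating proteins, which switch RABs off, had peaks at 20 of 35 where 20.9 were given, with TBC1D12 at 14.99 and TBC1D4 at 13.7. Among effectors it was 20 of 31, where 18.2 were given. SYTL2, an effector of RAB27A, had a fold of 21.1 (interval 14.7 to 29.4) and RAB11FIP3, an effector of RAB11, one of 14.7 (interval 10.5 to 20.2), while RAB11A and RAB11B themselves were not listed.

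**Figure D4:**
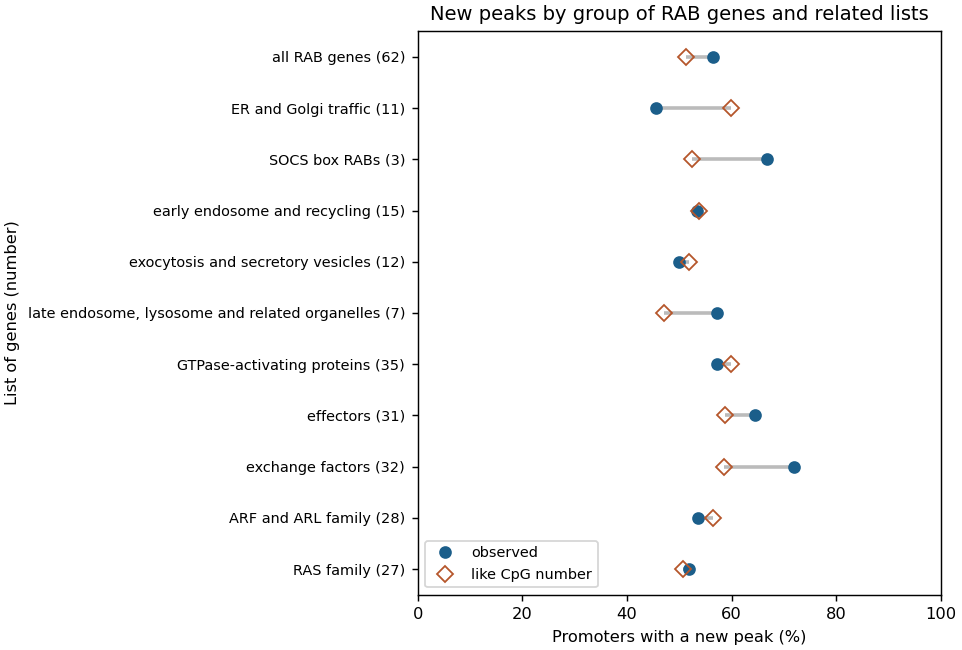
Share of promoters with a new peak (x axis, percent) in RAB genes and related lists (y axis, number of genes in parentheses). Drawn are all RAB genes, their groups, the exchange factors, GTPase-activating proteins and effectors, and 2 other small GTPase families. The 14 RAB genes outside the groups, with 10 peaks where the classes gave 6.07, are not drawn as a row. The regulators for extraction from membranes, escort and the lipid anchor are not drawn either. Filled points are observed shares and open diamonds the shares of other promoters of a like CpG number, and for all 62 RAB genes they stand at 56.5% and at the share that 31.8 promoters make.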

How the data were processed

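The data were a list of new peaks from MBD-seq of 1 wild type library. According to the methods, the authors mapped reads to hg19 with Bowtie2. The submitters' processing notes name MACS2, with no version or settings. The deposited columns are a score, which is the −log10 q times 10 rounded down, a fold as the ratio to the background, −log10 values of p and q, and the summit. The methods give an average depth over the libraries; for single peaks, the precision was taken from the fragments at the summit.

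Fragments k and background rate were recovered from the fold, taken as (k + 1)/(rate + 1), and the Poisson p-value, with every listed −log10 p met within 0.000403. Promoters and CpGs came from GRCh37 and GENCODE release 44. For 282 genes without a lifted canonical transcript the 5′ end of the gene was used, none of them a member. CpG islands were rebuilt from unmasked sequence (length over 200 bp, GC of at least 50%, observed/expected ratio over 0.6). This gave 50889 islands, many more than the set the paper used, and the shares of promoters with an island refer to this wider set. RAB7B, on the list of late endosomal genes, had no entry among the protein-coding genes used. No p-value was computed. Some results are not reported here. The steps were tested on simulated data.

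Named were the members with the highest and lowest folds, those without a peak and the most CpGs, those with a peak and the fewest CpGs, those on X, mixed paralogue sets, those with several peaks or a shared promoter, and the leading genes of each list. The members and lists were chosen with earlier results of these data known. RAB1B and RAB34 were added to the sequences shown after their values were seen. Alternatives changed the peak threshold, window, overlap, start sites and CpG classes. Scripts ran in Python 3.11.15 (scipy 1.17.1, pandas 2.3.3, numpy 2.4.6, edlib, matplotlib 3.10.9).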

Additional observations from a re-analysis of the deposited data

How the results depend on the processing

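Of 31 alternative values, 28 stayed within 1.5 times the value reported. That limit is wide, since 24 RAB promoters with a peak instead of 35 still fell within it. Some settings could not lower a count. With autosomes only it had to stay at 35, because no RAB promoter on X had a peak. The observed number beside the one from the CpG classes was not scored, so the 28 do not measure how stable that comparison was. When peaks under the median fold were left out, the number given by promoters of a like CpG number was 19.8, while 27 RAB promoters had a peak. The regulators with a peak were then 45, where the CpG classes gave 37.6, and 25.6% of all promoters had one. With a −log10 q of at least 10 the CpG classes gave 19.0, and 24 RAB promoters had a peak. Windows of 500 and 2000 bp gave 34 and 35 RAB promoters, RAB12 being the one lost. The median fold was 8.60 with the peak nearest to the start site and 11.5 with a −log10 q of at least 10. With 1 library per condition, no replicate could be left out and no error between replicates is known. No paired analysis was possible because each condition has 1 library.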

Other observations

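Further families of small GTPases were counted in the same way. The RAS family, which relays growth signals, had peaks at 14 of 27 promoters, where promoters of a like CpG number gave 13.7, and MRAS was highest with 18.9 (interval 13.0 to 26.6), before RAP2B with 16.1 (interval 10.7 to 23.5). The ARF and ARL family, which recruits vesicle coats, had 15 of 28, where 15.8 were given, with ARF1 and ARF6 both at 12.4 (interval 7.72 to 19.0). The median folds were 7.77 and 7.47, next to 8.68 for the RAB genes. The 2 genes with the highest fold in each of these families were named after the values had been seen.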
